A study of Mus musculus with 24 samples.

Results

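Imprinted genes are read from a single parental allele, chosen by DNA methylation that is laid down in the egg or the sperm and kept through the divisions of the embryo. They lie in clusters, called domains, in which a methylated control region sets maternal and paternal genes on opposite alleles. Many of them act on growth: Igf2 is a growth factor, Igf2r clears it, Grb10 damps insulin and IGF signalling, and Cdkn1c holds back the cell cycle. Tet proteins oxidise methylated cytosine and take part in its removal, and imprints in embryonic stem cells (ESCs) are known to be unstable in culture. Here 40 imprinted genes were listed by symbol, and 39 were found among the 22926 symbols of the tables of both days (Mirg was not analysed here). They comprise 16 genes usually read from the maternal allele, 21 from the paternal allele and 2, Gnas and Inpp5f, whose allele depends on the isoform.

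Polyadenylated RNA was sequenced from 24 libraries of mouse ESC clones. Of these, 12 were undifferentiated (D0) and 12 had spent 6 days without LIF, the cytokine that holds ESCs undifferentiated (D6). The 12 clones of a day comprised 3 WT, 3 Tet1-/- and 2 each of Tet2-/-, DKO and TKO. DKO cells lack Tet1 and Tet2, and TKO cells lack all 3 Tet genes. All clones, WT included, came from 1 parental 129/SVj ESC clone carrying Oct4:IRES:eGFP, and the knockouts carry small insertions or deletions made with Cas9, so each library is 1 clone of 1 line. Values for WT are listed in the order of clones O4.1, O4.2 and O4.13, and for Tet1-/- in that of Tet1_KO_2.1, Tet1_KO_2.3 (D0) or Tet1_KO_2.2 (D6), and Tet1_KO_2.4. For Tet2-/- the order is Tet2_KO_3.10 and Tet2_KO_3.11, for DKO DKO_5.11 and DKO_5.12, and for TKO TKO_8.4 and TKO_8.12. The reads do not tell the 2 alleles apart, so a level is the sum of both.

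Libraries held 21729346 to 37290208 counts at D0 and 18400463 to 34219640 at D6. Levels are given as CPM, that is counts scaled to a common total after TMM normalisation, on which 3 counts equal 0.0814 to 0.151. The 39 genes took 0.166% to 0.230% of the counts at D0 and 0.3497% to 0.823% at D6. The 9 markers of pluripotent ESCs summed to 4824 to 5618 CPM over the D0 libraries. Tet2 mRNA at D0 was 93.9, 93.6 and 87.9 CPM in WT and 20.9 and 23.2 in Tet2-/-, and Tet1 mRNA was 431, 220.3 and 368 CPM in WT and 93.4, 126 and 358 in Tet1-/-, where Tet1_KO_2.4 lay within the WT range. In DKO Tet1 mRNA was 372 and 230.5 CPM and Tet2 mRNA 55.7 and 22.3. In TKO Tet1 mRNA was 568 and 41.7 CPM, above every WT library in TKO_8.4, Tet2 mRNA 42.5 and 8.16 and Tet3 mRNA 4.43 and 2.84, beside 5.05, 7.94 and 6.04 for Tet3 in WT. RNA with a small insertion or deletion is still counted, so these levels do not check the genotypes. In TKO_8.12 the median gene of chromosome 6 stood 0.34 above WT at D0 and 0.39 above at D6 on the log2 scale. That of chromosome 12 stood 0.36 and 0.38 above, and that of chromosome 11 0.33 and 0.14. The part of these shifts in the TKO values of genes on the 3 chromosomes was not tested.

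After 6 days without LIF, imprinted genes rose in every genotype, among them Igf2, Peg3, H19, Cdkn1c, Meg3 and Gnas. Between days a gene was called higher or lower where edgeR's quasi-likelihood test gave a Benjamini-Hochberg adjusted p under 0.05 over 15639 genes and a change of over 2-fold. Of the 37 listed genes that passed the filter on low counts (Kcnq1 and Airn did not), 18 rose in WT, where 20.7% of all genes did. In Tet1-/- 17 rose (all genes 19.9%), in Tet2-/- 11 (12.7%), while DKO had 15 (18.6%) and TKO 16 (16.8%). The median log2 change of the 37 genes was 0.88 in WT and 0.68 in Tet2-/-, with 0.82, 0.93 and 0.93 in Tet1-/-, DKO and TKO, and that of all genes lay between -0.012 and 0.015. When the D6 library of Tet2_KO_3.10 was left out, the count in Tet2-/- was 7. In bulk RNA, fewer cells of a type and less RNA per cell cannot be told apart, here or in any comparison that follows. Markers of other cell types moved with day too: in WT those of mesoderm summed to 10.3 to 15.9 CPM at D0 and 274 to 900.3 at D6, and those of smooth muscle and mesenchyme to 7.47 to 10.4 and 354 to 789. Their part in the rise of the imprinted genes was not tested.

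The genes H19, Igf2, Meg3, Cdkn1c, Magel2, Peg3, Sgce, Plagl1 and Gnas rose in all 5 genotypes. Slc22a18, a maternal gene of a membrane transporter, was the single gene called lower, in Tet2-/- (all genes 6.44%), where it fell by 1.70 on the log2 scale (SE 0.48, adjusted p = 0.00823). The difference from its change in WT, -1.42 (SE 0.61, adjusted p = 0.112), was not called. The fall in Tet2-/- was lost without the D0 or the D6 library of Tet2_KO_3.10 (adjusted p = 0.0688 and 0.0920). With the clone as a block Slc22a18 was also lower in Tet1-/- (log2 change -1.33, adjusted p = 0.0141). In the other 4 genotypes edgeR and DESeq2 each called 0 of the 37 genes lower, beside 13.3% of all genes in WT, 11.2% in Tet1-/-, 10.6% in DKO and 8.63% in TKO. There 21 to 25 of the 37 had an unadjusted p under 0.05 in either direction, as had 8854 to 10820 of all 15639 genes. In none of the comparisons of days or of knockouts with WT were 13 genes called: Rtl1, Snrpn, Ndn, Mkrn3, Peg12, Ube3a, Phlda2, Kcnq1ot1, Tssc4, Zrsr1, Inpp5f, Slc38a4 and Trappc9. The map of fold changes by domain shows the red block of rising genes on the left and, among the knockouts, a column of blue at D6 in Tet2-/-.

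**Figure D1:**
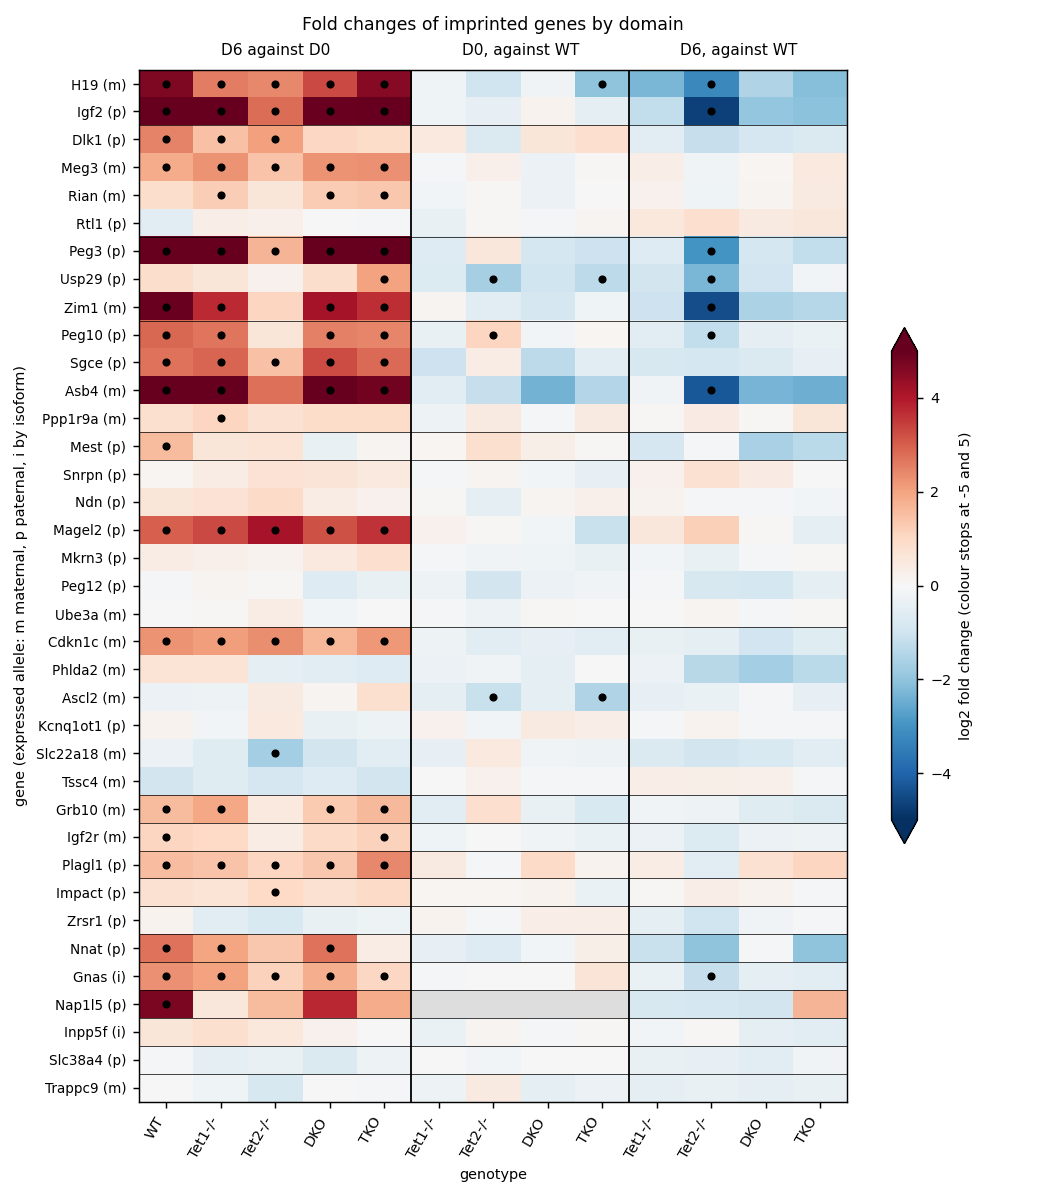
Log2 fold changes of the 37 tested imprinted genes (rows, grouped by domain; m maternal, p paternal, i by isoform) in 13 comparisons (columns: D6 against D0 in each genotype, each knockout against WT at D0 and at D6). Red is higher and blue lower, the colour stops at -5 and 5, grey was not tested and dots mark called genes. In the WT column 18 genes carry dots, and in the Tet2-/- column at D6 8 do.

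At D0 few imprinted genes passed both the adjusted p and the 2-fold limit between a knockout and WT. In TKO Gnas (log2 difference 0.66, adjusted p = 0.0100) and Snrpn (-0.41, adjusted p = 0.0195) passed edgeR's adjusted p but not the 2-fold limit. In Tet2-/- 1 of 36 tested genes, Peg10, was higher (all genes 0.816%) and 2, Usp29 and Ascl2, were lower (2.37%). In TKO 3 genes, H19, Usp29 and Ascl2, were lower (2.12%), and edgeR and DESeq2 each called 0 higher (1.03%). There 14 of the 36 had an unadjusted p under 0.05, as had 3813 of all 14456 genes. In Tet1-/- edgeR called 0 (all genes 0% higher, 0.00692% lower), with 4 genes at an unadjusted p under 0.05 (1828 over all genes). It called 0 in DKO too (0.0138% higher, 0.0208% lower), with 7 genes at that p (2080 over all genes). DESeq2 called 1 gene, Sgce, lower in each. Trophectoderm markers at D0 summed to 55.7 to 85.5 CPM in WT, 49.6 to 68.6 in Tet2-/- and 37.5 to 50.9 in TKO. Nearly all of this was Tfap2c (36.6 to 85.1 CPM over the D0 libraries), and 2 of the 6 markers were tested. Neuroectoderm markers summed to 142 to 225 CPM in WT and 239 to 299 in Tet2-/-, and those of smooth muscle and mesenchyme to 7.47 to 10.4 and 4.61 to 5.87. Mesoderm markers summed to 10.3 to 15.9 CPM in WT, 12.6 to 13.6 in Tet2-/- and 17.4 to 26.9 in TKO. Endoderm markers summed to 27.4 CPM in TKO_8.12 and to 5.29 to 9.43 over the other D0 libraries. Their part in the D0 differences was not tested. The median log2 difference of the 36 genes from WT was -0.04 in Tet2-/- and -0.13 in TKO, with -0.21 in Tet1-/- and -0.14 in DKO, and that of all genes was between -0.007 and 0.021.

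At D6 the called differences were those of Tet2-/-. There 8 of 37 genes were lower than in WT, where 9.45% of all genes were: H19, Igf2, Peg3, Usp29, Zim1, Peg10, Asb4 and Gnas. EdgeR called 0 higher and DESeq2 1, Magel2 (all genes 4.81%). In either direction 20 of the 37 had an unadjusted p under 0.05, as had 6618 of all 15435 genes. In Tet1-/-, DKO and TKO edgeR called 0 of all 15435 genes tested (0% in each direction). There 6, 14 and 14 imprinted genes had an unadjusted p under 0.05, beside 1949, 2250 and 3629 over all genes. DESeq2 called H19 lower in Tet1-/- and Mest lower in DKO, and in TKO it called H19, Igf2, Mest, Nnat and Peg3 lower and Plagl1 higher. The median log2 difference from WT was -0.46 in Tet2-/-, -0.45 in DKO, -0.38 in TKO and -0.30 in Tet1-/-, beside -0.033 to 0.016 for all genes. The Tet2-/- calls needed both clones: without Tet2_KO_3.10 edgeR called 1 gene, Zim1, and without Tet2_KO_3.11 0, while the fold changes of the 8 genes ranged from -4.91 to -1.001 on the log2 scale. Without WT clone O4.2, 11 genes were lower in Tet2-/- and 5 in TKO.

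A test of whether the change with day itself differed from that in WT called 6 genes in Tet2-/-, all with a smaller log2 change than in WT (all genes 5.13%): H19, Igf2, Peg3, Zim1, Peg10 and Gnas. EdgeR and DESeq2 each called 0 with a larger change (3.54%), and 14 of the 37 had an unadjusted p under 0.05, as had 5109 of all 15639 genes. In TKO Gnas alone was called (1.74%), and edgeR and DESeq2 called 0 in the other direction (1.84%). There 8 genes had an unadjusted p under 0.05 (3687 over all genes). With the clone as a block, Dlk1 (difference -1.39 on the log2 scale, adjusted p = 0.0199), Mest (-1.48, adjusted p = 0.0182) and Phlda2 (-1.21, adjusted p = 0.0261) were also called in TKO. The TKO count was 2 without the D0 library of TKO_8.4, 3 without the D6 library of WT clone O4.2 and 5 without the D6 library of TKO_8.12. In Tet2-/- Phlda2 passed with the clone as a block (-1.08, adjusted p = 0.0230). In Tet1-/- and DKO 0 of all genes were called by edgeR (0% in each direction) and 0 imprinted genes by DESeq2. There 2 and 7 imprinted genes had an unadjusted p under 0.05, beside 1200 and 1255 over all genes. The median difference of the 37 genes was -0.44 in Tet2-/- and -0.12 in TKO, beside 0.009 and -0.020 over all genes.

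Markers of cell types moved along with the low imprinted genes of Tet2-/- at D6. The 9 markers of pluripotent ESCs summed to 834 to 1715 CPM in WT and 2141 to 2341 in Tet2-/-, and 1 of the 9 was called higher in Tet2-/- and 1 lower. The 8 markers of mesoderm summed to 274 to 900.3 CPM in WT and 66.9 to 101 in Tet2-/-, where 7 of 8 were lower than in WT and Hand2 was at 0 in both libraries. Their sums in Tet1-/- (280.3 to 1010.0 CPM), DKO (248.6 to 392) and TKO (159 to 391) all lay above those of Tet2-/-. Within WT, clone O4.2 had the lowest mesoderm sum (274 CPM) and the highest pluripotent sum (1715), and so had Tet1_KO_2.4 within Tet1-/- (280.3 and 1619 CPM). Igf2 and Peg3 at D6 were lowest in the same clones of WT and Tet1-/-. Endoderm markers summed to 61.0 to 263 CPM in WT and 12.2 to 13.5 in Tet2-/- (4 of 6 tested lower, Ttr at 0 in both libraries). Those of smooth muscle and mesenchyme summed to 354 to 789 and 133 to 143 (5 of 7 lower), and those of trophectoderm to 97.4 to 107 and 36.3 to 39.1 (5 of 6 lower, Elf5 at 0 in both libraries). Neuroectoderm markers were higher in Tet2-/- in 3 of 5 tested genes, with sums of 96.5 to 129 CPM in WT and 195 to 205 in Tet2-/-. At D0 the same markers already summed to 142 to 225 CPM in WT and 239 to 299 in Tet2-/-. Of these, Tubb3 spanned 117.5 to 276 CPM over the D0 libraries and 5.89 to 126 over those of D6. Primed epiblast markers at D6 summed to 885 to 1337 in WT and 1317 to 1509 in Tet2-/- (1 of 5 higher). The part of these markers in the levels of the imprinted genes was not tested.

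In the H19-Igf2 domain both genes rose with differentiation and were lower than in WT at D6 in Tet2-/-. H19 (chr7:149761434-149764048, mm9) is a maternal non-coding RNA and Igf2 (chr7:149836673-149852721) the paternal growth factor beside it. They share enhancers, and methylation of a control region decides between them. H19 at D0 was 3.43, 3.58 and 2.59 CPM for WT, 2.63, 3.73 and 2.03 for Tet1-/-, 1.92 and 1.402 for Tet2-/-, 3.02 and 2.66 for DKO and 0.877 and 0.701 for TKO. Its D6 levels were 57.2, 50.1 and 134 CPM for WT, 25.1, 15.3 and 9.06 for Tet1-/-, 8.35 and 9.204 for Tet2-/-, 16.4 and 40.2 for DKO and 13.2 and 23.8 for TKO. WT clone O4.13 was the highest library, all 3 WT libraries lay above every knockout library, and the lowest values were those of Tet2-/- and of Tet1_KO_2.4.

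The log2 fold change of H19 in Tet2-/- against WT at D6 was -3.21 (SE 0.60, adjusted p = 0.00651). Its change with day was 4.65 (SE 0.46, adjusted p = 7.95e-08) in WT and 2.42 (SE 0.55, adjusted p = 0.00195) in Tet2-/-, a difference of -2.24 (SE 0.69, adjusted p = 0.0355). The difference was not called without any 1 of the 4 Tet2-/- libraries, of the D0 libraries of WT clones O4.2 and O4.13 or of the D6 library of O4.13 (adjusted p 0.0549 to 0.15). In TKO both D0 libraries were below all other D0 libraries, with a log2 fold change of -2.02 (SE 0.32, adjusted p = 0.00584) from WT. H19 then rose in TKO to D6 by 4.54 (SE 0.62, adjusted p = 1.08e-05).

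Igf2 at D0 was 3.51, 5.55 and 3.41 CPM for WT, 3.94, 2.83 and 4.19 for Tet1-/-, 3.07 and 3.24 for Tet2-/-, 5.64 and 3.74 for DKO and 2.67 and 3.30 for TKO. The genotypes overlapped. By D6 Igf2 had reached 777, 247 and 653 CPM for WT, 252, 352 and 111 for Tet1-/-, 20.5 and 23.9 for Tet2-/-, 168 and 124 for DKO and 61.0 and 209 for TKO. Tet2-/- held the lowest levels of any genotype at D6, with no overlap, and WT clone O4.2, at 247 CPM, lay within the Tet1-/- range. Against WT at D6, the log2 fold change of Igf2 in Tet2-/- was -4.67 (SE 0.72, adjusted p = 0.00434). Igf2 rose by 7.07 (SE 0.56, adjusted p = 5.80e-09) in WT and by 2.81 (SE 0.60, adjusted p = 0.00121) in Tet2-/-, and the difference between these rises was -4.26 (SE 0.78, adjusted p = 0.00408). Igf2 overlaps its antisense transcript Igf2as, and whether the counting used strand is not given in the sources used here, so reads of the pair cannot be told apart.

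**Figure D2:**
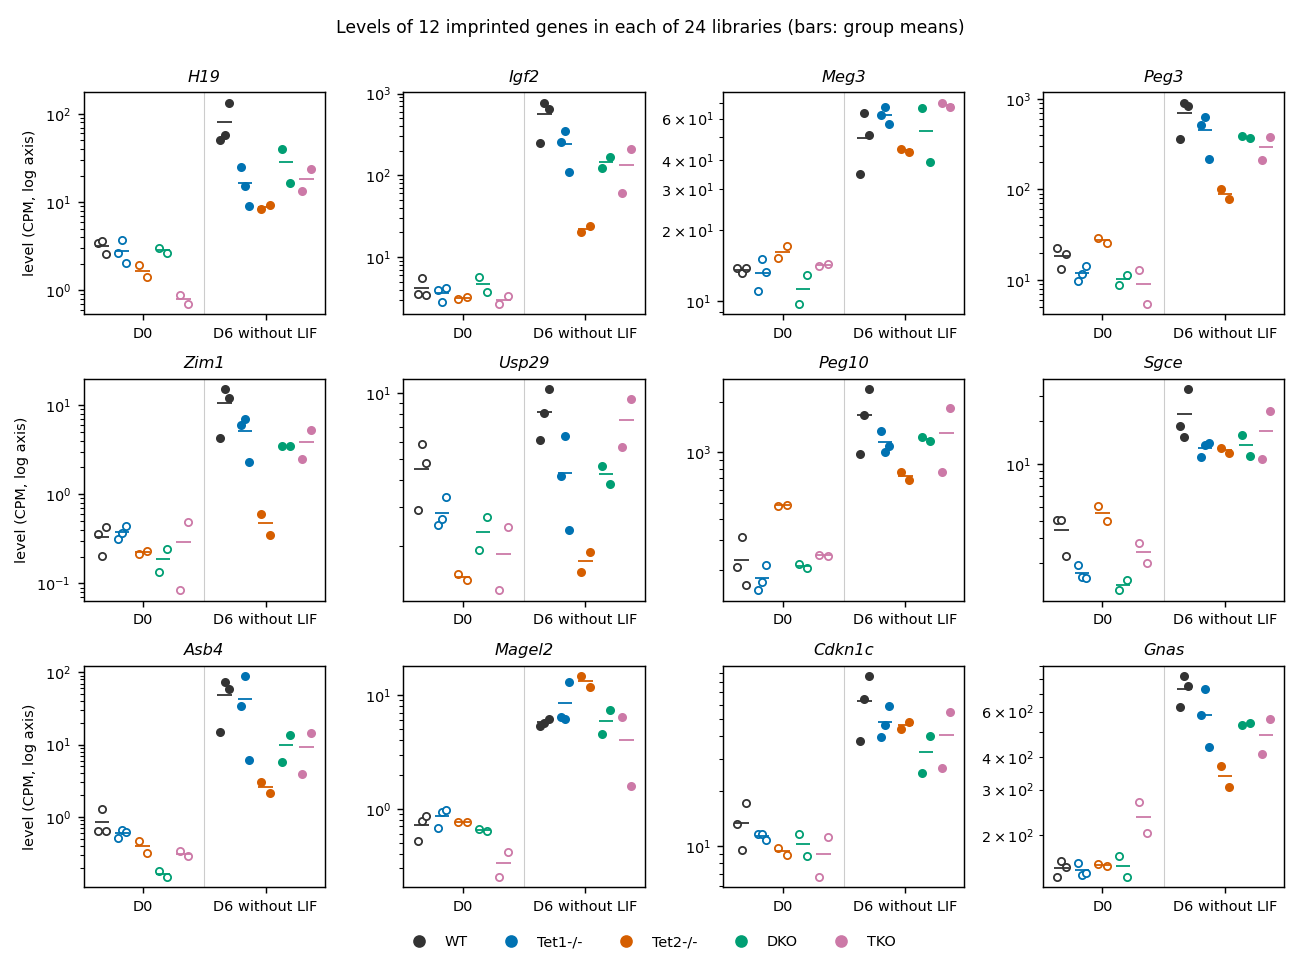
Levels (CPM, log axis) of 12 imprinted genes in each of 24 libraries at D0 (open points) and D6 without LIF (filled points), coloured by genotype, with bars at the group means. Igf2, Peg3 and Zim1 at D6 are lowest in both Tet2-/- libraries, and Magel2 is not.

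In the Peg3 domain of chromosome 7, Peg3, Usp29 and Zim1 were each lower in Tet2-/- at D6. Peg3 (chr7:6656603-6683132) encodes a zinc finger protein and Usp29 (chr7:6913871-6916480) a ubiquitin-specific protease, both paternal, and Zim1 (chr7:6628154-6649161) is a maternal zinc finger gene. Peg3 at D0 was 22.7, 13.2 and 19.4 CPM for WT, 9.83, 11.7 and 14.4 for Tet1-/-, 29.1 and 25.8 for Tet2-/-, 8.84 and 11.4 for DKO and 12.7 and 5.44 for TKO. Both Tet2-/- libraries were the highest of D0. After differentiation Peg3 was 909, 361 and 833 CPM for WT, 514, 629.7 and 217 for Tet1-/-, 100 and 78.8 for Tet2-/-, 368 and 388 for DKO and 213 and 379 for TKO, and both Tet2-/- libraries were now the lowest. Against WT at D6 that is a log2 fold change of -2.99 (SE 0.51, adjusted p = 0.00534). Peg3 rose by 5.25 (SE 0.44, adjusted p = 1.07e-08) in WT and by 1.71 (SE 0.46, adjusted p = 0.00668) in Tet2-/-, and these rises differed by -3.54 (SE 0.60, adjusted p = 0.00273). The rise in Tet2-/- missed the threshold without the D0 library of Tet2_KO_3.11 (adjusted p = 0.0621) or the D6 library of Tet2_KO_3.10 (adjusted p = 0.0504).

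Zim1 at D0 ranged from 0.0835 to 0.494 CPM, near the level of 3 counts. Its D6 values were 15.1, 4.32 and 12.1 CPM for WT, 5.92, 7.03 and 2.304 for Tet1-/-, 0.605 and 0.349 for Tet2-/-, 3.45 and 3.47 for DKO and 2.46 and 5.29 for TKO. Both Tet2-/- libraries lay below every other D6 library. The log2 fold change of Tet2-/- against WT was -4.45 (SE 0.71, adjusted p = 0.00474), and the change with day differed from that in WT by -3.87 (SE 1.05, adjusted p = 0.0207). The latter call was lost without either D0 library of Tet2-/- (adjusted p = 0.0816 and 0.107) or the D6 library of Tet2_KO_3.11 (adjusted p = 0.0728).

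Usp29 at D0 was 2.91, 5.84 and 4.79 CPM for WT, 2.51, 2.66 and 3.35 for Tet1-/-, 1.49 and 1.402 for Tet2-/-, 1.91 and 2.71 for DKO and 1.25 and 2.43 for TKO. All Tet2-/- and TKO libraries lay below every WT library already at D0. The log2 fold change from WT was -1.66 (SE 0.35, adjusted p = 0.0177) in Tet2-/- and -1.29 (SE 0.34, adjusted p = 0.0378) in TKO. The first call was lost when WT clone O4.13, WT clone O4.2 or either Tet2-/- clone was left out, and the second on leaving out any of 10 of the 12 libraries (adjusted p up to 0.108). At D6 Usp29 stood at 8.118, 6.10 and 10.4 CPM for WT, 4.18, 6.39 and 2.37 for Tet1-/-, 1.53 and 1.88 for Tet2-/-, 3.84 and 4.64 for DKO and 5.69 and 9.34 for TKO. The Tet2-/- libraries were the lowest of D6, with a log2 fold change of -2.29 (SE 0.42, adjusted p = 0.00640) from WT, while TKO_8.12 lay within the WT range and TKO_8.4 just below it. Usp29 was called higher at D6 than at D0 only in TKO, by 2.02 (SE 0.43, adjusted p = 8.36e-04). Its change was 0.86 (SE 0.33, adjusted p = 0.0284) in WT, and the difference between the changes of TKO and WT was 1.15 (SE 0.54, adjusted p = 0.202).

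In the Peg10-Sgce domain of chromosome 6, Peg10 was high in Tet2-/- at D0 and low there at D6. Peg10 (chr6:4697306-4710514) is a paternal gene derived from a retrotransposon, Sgce (chr6:4624350-4697204) the paternal gene of epsilon-sarcoglycan, and Asb4 (chr6:5333386-5383022) a maternal ubiquitin ligase adaptor. Ppp1r9a (chr6:4853004-5115661) is the gene of neurabin, a partner of protein phosphatase and actin. Peg10 at D0 was 208, 313 and 161 CPM for WT, 150.2, 169 and 214 for Tet1-/-, 479 and 487 for Tet2-/-, 215 and 204 for DKO and 244 and 242 for TKO. Both Tet2-/- libraries were above all others, with a log2 fold change of 1.06 (SE 0.21, adjusted p = 0.0153) from WT. Without WT clone O4.13 the value was 0.88, under 2-fold, and without Tet2_KO_3.10 or Tet2_KO_3.11 the adjusted p was 0.107 and 0.133. The median gene of chromosome 6 was 0.11 and 0.11 above WT in these libraries.

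The D6 values of Peg10 were 1664, 978 and 2384 CPM for WT, 1350.0, 1005 and 1085 for Tet1-/-, 765 and 688 for Tet2-/-, 1174 and 1242 for DKO and 768 and 1844 for TKO. The lowest values were those of Tet2-/- and of TKO_8.4. The log2 fold change of Tet2-/- against WT, -1.22 (SE 0.38, adjusted p = 0.0347), was not called without WT clone O4.1 or O4.13 or any clone of Tet2-/- or DKO (adjusted p up to 0.187). Peg10 rose by 2.88 (SE 0.31, adjusted p = 2.59e-07) in WT, 2.69 in Tet1-/-, 2.53 in DKO and 2.43 in TKO. It was not called in Tet2-/-, at 0.59 (SE 0.36, adjusted p = 0.199), and the change there differed from that in WT by -2.29 (SE 0.46, adjusted p = 0.00611).

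Sgce ranged from 1.29 to 5.03 CPM over the D0 libraries and from 10.9 to 33.8 over those of D6. It rose in all genotypes, by 2.72 (SE 0.31, adjusted p = 5.46e-07) in WT and 1.48 (SE 0.37, adjusted p = 0.00370) in Tet2-/-, where the call needed the D0 library of Tet2_KO_3.11 (adjusted p = 0.0533 without it). Asb4 at D0 ranged from 0.148 to 1.27 CPM and was lowest in both DKO libraries, at 0.178 and 0.148. On D6 it was 73.5, 15.0 and 59.4 CPM for WT, 33.8, 89.9 and 6.09 for Tet1-/-, 3.08 and 2.16 for Tet2-/-, 13.7 and 5.83 for DKO and 3.97 and 14.3 for TKO. Tet1-/- spanned the widest range, with Tet1_KO_2.2 above every WT library and Tet1_KO_2.4 below them, and Tet2-/- was the lowest. Against WT at D6, Asb4 had a log2 fold change of -4.24 (SE 1.14, adjusted p = 0.0211) in Tet2-/-, a call lost without either Tet2-/- clone or without WT clone O4.1 or O4.13. Asb4 rose by 5.84 (SE 0.84, adjusted p = 7.96e-06) in WT. It was not called in Tet2-/- at 2.76 (SE 1.12, adjusted p = 0.0581), where the fit with clones as a block called it (2.72, adjusted p = 0.0180). Ppp1r9a ranged from 19.04 to 38.5 CPM at D0 and from 37.3 to 71.98 at D6. It was called higher in Tet1-/-, by 1.09 (SE 0.18, adjusted p = 3.04e-05), and passed the adjusted p but not the 2-fold limit in the other 4 genotypes (0.75 in Tet2-/- to 0.93 in DKO). The difference between Tet1-/- and WT was 0.30 (SE 0.25, adjusted p = 0.820), and the change in Tet1-/- was under 2-fold (0.91) without the D6 library of Tet1_KO_2.4.

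In the Dlk1-Dio3 domain of chromosome 12, Meg3, Rian and Dlk1 rose and edgeR called no gene between a knockout and WT. Its maternal non-coding RNAs Meg3 (chr12:110779211-110809936) and Rian (chr12:110842155-110899919) lie in a row on 1 strand, and loss of Meg3 in ESC clones is a known sign of a lost imprint. Meg3 at D0 was 13.9, 13.2 and 13.8 CPM for WT, 11.02, 15.1 and 13.3 for Tet1-/-, 15.3 and 17.2 for Tet2-/-, 9.73 and 12.9 for DKO and 14.1 and 14.4 for TKO. All 12 libraries thus held Meg3, within 9.73 to 17.2 CPM. Its levels at D6 were 63.6, 34.7 and 51.1 CPM for WT, 62.3, 67.2 and 57.0 for Tet1-/-, 44.7 and 43.2 for Tet2-/-, 39.1 and 66.9 for DKO and 70.2 and 67.1 for TKO. WT clone O4.2 was the lowest and TKO_8.4 the highest.

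Meg3 rose by 1.87 (SE 0.20, adjusted p = 2.35e-07) in WT and was called in all 5 genotypes, with log2 changes from 1.43 in Tet2-/- to 2.27 in TKO. Rian ranged from 59.8 to 83.9 CPM at D0 and from 101 to 238 at D6. It was called higher in Tet1-/- by 1.23 (SE 0.19, adjusted p = 1.49e-05), in DKO by 1.29 and in TKO by 1.33, and its change in WT, under 2-fold, was 0.88 (SE 0.18, adjusted p = 3.91e-04). Dlk1 (chr12:110691033-110701546), a paternal transmembrane relative of Notch ligands, was 2.02, 1.73 and 2.63 CPM for WT, 3.34, 2.95 and 2.69 for Tet1-/-, 1.28 and 1.31 for Tet2-/-, 3.64 and 2.90 for DKO and 1.71 and 5.89 for TKO at D0. TKO_8.12 was the highest library and TKO_8.4 was below every library of DKO. The D6 values of Dlk1 were 11.4, 6.21 and 17.9 CPM for WT, 7.92, 9.93 and 6.85 for Tet1-/-, 5.41 and 5.40 for Tet2-/-, 7.56 and 5.81 for DKO and 3.84 and 10.7 for TKO. Dlk1 was called higher at D6 in WT, by 2.48 (SE 0.42, adjusted p = 5.06e-05), in Tet1-/- by 1.46 and in Tet2-/- by 2.06, and with the clone as a block also in DKO (1.03, adjusted p = 0.00289). Rtl1 (chr12:110827404-110838540), a paternal gene with maternal microRNAs on its other strand, was not called and ranged from 1.47 to 3.17 CPM at D0 and from 1.02 to 2.75 at D6.

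In the Snrpn-Ube3a domain of chromosome 7, Magel2 was the single gene called between days, and edgeR called none between a knockout and WT. Magel2 (chr7:69521865-69526526), a paternal gene that regulates a ubiquitin ligase on endosomes, was 0.525, 0.782 and 0.864 CPM for WT, 0.676, 0.942 and 0.969 for Tet1-/-, 0.768 and 0.759 for Tet2-/-, 0.666 and 0.640 for DKO and 0.251 and 0.412 for TKO at D0. Both TKO libraries were the lowest. On D6 Magel2 was 5.75, 5.37 and 6.14 CPM for WT, 6.38, 6.14 and 13.2 for Tet1-/-, 14.9 and 11.9 for Tet2-/-, 7.39 and 4.53 for DKO and 6.43 and 1.60 for TKO. The highest libraries were both of Tet2-/- and Tet1_KO_2.4, and TKO_8.12 was the lowest. Against WT at D6 its log2 fold change in Tet2-/- was 1.20 (SE 0.48, adjusted p = 0.0789), which edgeR did not call and DESeq2 did (adjusted p = 0.0372), as did edgeR with 1 TKO library left out, whichever it was (adjusted p = 0.0240 and 0.0238). Its rise was 4.12 (SE 0.52, adjusted p = 6.45e-06) in Tet2-/- and 2.99 (SE 0.42, adjusted p = 6.21e-06) in WT, and the difference, 1.14 (SE 0.65, adjusted p = 0.233), was not called. Of its neighbours, the splicing gene Snrpn ranged from 142 to 220.5 CPM at D0 and 179 to 368 at D6. Ndn, a paternal gene of the same protein family as Magel2, ranged from 10.2 to 23.2 and 17.9 to 27.2, Mkrn3 from 3.68 to 6.54 and 5.23 to 8.396, and Peg12 from 2.06 to 7.86 and 1.66 to 4.99 on the same days. The maternal ubiquitin ligase gene Ube3a ranged from 119 to 158 and 134 to 165 CPM.

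In the Kcnq1 domain, also on chromosome 7, the maternal genes Cdkn1c, Ascl2 and Slc22a18 were called, in different comparisons. Cdkn1c (chr7:150644255-150646955), the gene of a cyclin-dependent kinase inhibitor, was 13.2, 9.50 and 17.3 CPM for WT, 11.6, 11.6 and 10.8 for Tet1-/-, 9.73 and 8.88 for Tet2-/-, 11.6 and 8.81 for DKO and 6.72 and 11.2 for TKO at D0. By D6 it was 64.6, 37.9 and 86.5 CPM for WT, 39.6, 46.0 and 58.8 for Tet1-/-, 44.2 and 48.3 for Tet2-/-, 40.1 and 25.2 for DKO and 26.8 and 54.8 for TKO. WT clone O4.13 was the highest library of D6 and DKO_5.12 the lowest, and the genotypes overlapped. Cdkn1c rose by 2.24 (SE 0.31, adjusted p = 4.59e-06) in WT and by 1.67 (DKO) to 2.31 (Tet2-/-) on the log2 scale in the knockouts.

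Ascl2 (chr7:150152727-150155169), a transcription factor gene of the trophoblast, was low in all libraries and at D0 stood at 2.83, 5.02 and 3.84 CPM for WT, 3.103, 3.114 and 2.51 for Tet1-/-, 2.26 and 1.46 for Tet2-/-, 2.44 and 3.15 for DKO and 1.46 and 1.28 for TKO. Neither the TKO libraries nor those of Tet2-/- overlapped WT, and the log2 fold changes were -1.51 (SE 0.30, adjusted p = 0.0135) and -1.10 (SE 0.29, adjusted p = 0.0349). The Tet2-/- call did not hold without Tet1_KO_2.3, WT clone O4.13 or O4.2 or any clone of Tet2-/- or DKO (adjusted p up to 0.265). At D6 Ascl2 ranged from 1.32 to 3.48 CPM and was not called in any knockout. Phlda2, a maternal gene that limits placental growth, was 85.3, 52.0 and 148 CPM for WT, 58.1, 132 and 41.5 for Tet1-/-, 37.5 and 35.9 for Tet2-/-, 36.1 and 21.7 for DKO and 30.4 and 43.5 for TKO at D6. Phlda2 was not called between days or between a knockout and WT, and WT and Tet1-/- held both the highest libraries and the widest ranges. Its change with day was called as different from that in WT in Tet2-/- and TKO only with the clone as a block, as given above. Tssc4, a maternal gene, ranged from 28.8 to 38.6 CPM at D0 and from 12.5 to 24.4 at D6, so that the days did not overlap. Its log2 change passed the adjusted p in all 5 genotypes but not the 2-fold limit, at -0.62 in Tet1-/- to -0.92 in TKO. Kcnq1ot1, the paternal antisense RNA that silences the domain, ranged from 14.0 to 25.0 CPM at D0 and from 12.7 to 25.6 at D6. Slc22a18 ranged from 1.002 to 2.90 and 0.379 to 1.56, and Kcnq1 itself stayed at or under 0.353 CPM.

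Of the genes outside these domains, Gnas and Plagl1 rose in all 5 genotypes, Grb10 in 4 and Nnat in 3, while the others rose in 0 to 2. Gnas (chr2:174109821-174172245), the gene of the stimulatory G protein subunit, was 138, 159 and 151 CPM for WT, 156, 140.5 and 143 for Tet1-/-, 155 and 152 for Tet2-/-, 166 and 139 for DKO and 268 and 204 for TKO at D0. Both TKO libraries lay above all others. At D6 Gnas had reached 826, 623 and 753 CPM for WT, 581, 734 and 439 for Tet1-/-, 370.1 and 306 for Tet2-/-, 543 and 534 for DKO and 410.1 and 561 for TKO, lowest in both Tet2-/- libraries. The log2 fold change of Tet2-/- against WT at D6 was -1.13 (SE 0.21, adjusted p = 0.00661). Gnas rose by 2.297 (SE 0.17, adjusted p = 2.33e-09) in WT, 1.14 (SE 0.20, adjusted p = 2.04e-04) in Tet2-/- and 1.04 (SE 0.20, adjusted p = 3.05e-04) in TKO. The change with day differed from that in WT by -1.16 (SE 0.25, adjusted p = 0.00808) in Tet2-/- and -1.26 (SE 0.25, adjusted p = 0.0104) in TKO. The rise in Tet2-/- was under 2-fold without the D6 library of Tet2_KO_3.10 (0.99), and that in TKO was under 2-fold without the D0 or the D6 library of TKO_8.12 (0.85 and 0.82). Gnas overlaps the antisense gene Nespas, so these reads may be mixed.

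Grb10 (chr11:11830511-11938686), a maternal brake on insulin signalling, was 229.8, 112 and 206 CPM for WT, 135, 131 and 119 for Tet1-/-, 283 and 372 for Tet2-/-, 170.1 and 118 for DKO and 146 and 70.8 for TKO at D0. Both Tet2-/- libraries were the highest. Its levels on D6 were 723, 383 and 517 CPM for WT, 377, 739 and 340.3 for Tet1-/-, 486 and 428 for Tet2-/-, 381 and 326 for DKO and 231 and 429 for TKO. Grb10 rose in WT by 1.57 (SE 0.34, adjusted p = 4.70e-04), in Tet1-/- by 1.92, in DKO by 1.29 and in TKO by 1.60, and was not called in Tet2-/-, at 0.48 (SE 0.40, adjusted p = 0.361). The difference between Tet2-/- and WT, -1.09 (SE 0.52, adjusted p = 0.154), was not called. The call in DKO was lost without the D0 library of DKO_5.12 or the D6 library of DKO_5.11, and that in TKO without either library of TKO_8.12 (adjusted p up to 0.0979). Igf2r (chr17:12875272-12962530), the maternal receptor that carries Igf2 to the lysosome, ranged from 75.9 to 121 CPM at D0 and from 139.7 to 257 at D6. It rose in WT by 1.09 (SE 0.11, adjusted p = 8.83e-08) and in TKO by 1.15. In Tet1-/- and DKO, just under 2-fold, its change was 0.997 (adjusted p = 2.97e-07) and 0.97 (adjusted p = 7.37e-06), and in Tet2-/- it was 0.39 (SE 0.13, adjusted p = 0.0234). Airn, the paternal RNA antisense to it, stayed at or under 0.403 CPM.

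Plagl1 (chr10:12810497-12851500), a paternal zinc finger gene that checks the cell cycle, was 4.24, 3.13 and 4.92 CPM for WT, 4.89, 5.29 and 6.87 for Tet1-/-, 3.498 and 4.15 for Tet2-/-, 7.42 and 8.56 for DKO and 3.88 and 5.36 for TKO at D0. Both DKO libraries were the highest. On D6 Plagl1 was 12.2, 8.89 and 14.4 CPM for WT, 19.1, 10.3 and 16.5 for Tet1-/-, 8.55 and 7.74 for Tet2-/-, 22.1 and 18.2 for DKO and 16.6 and 32.5 for TKO. TKO_8.12 was now the highest, and both Tet2-/- libraries were below all others. Plagl1 rose in every genotype, by 2.402 (SE 0.34, adjusted p = 1.55e-05) in TKO, 1.53 in WT and 1.09 (SE 0.33, adjusted p = 0.0142) in Tet2-/-, where the call was lost without either D0 library or the D6 library of Tet2_KO_3.10. Mest (chr6:30673547-30698457), a paternal gene of the hydrolase family that overlaps Copg2 on the other strand, was 384, 155 and 427 CPM for WT, 154, 163 and 223 for Tet1-/-, 306 and 311 for Tet2-/-, 109.8 and 101 for DKO and 65.9 and 185 for TKO at D6. All DKO libraries lay below every WT library. Mest rose from D0 in WT, by 1.56 (SE 0.36, adjusted p = 8.42e-04). Its uncalled changes were 0.68 in Tet2-/-, 0.60 in Tet1-/-, 0.15 in TKO and -0.36 in DKO. None of these was called as different from WT (adjusted p 0.131 to 0.670), except that of TKO with the clone as a block (adjusted p = 0.0182).

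Nnat, a paternal gene of an endoplasmic reticulum protein that lies within Blcap, ranged from 0.263 to 0.742 CPM at D0 and from 0.449 to 5.98 at D6. It rose in WT by 2.71 (SE 0.54, adjusted p = 2.42e-04), in Tet1-/- by 1.99 and in DKO by 2.71, where the call needed the D6 library of DKO_5.11 (adjusted p = 0.0702 without it). Impact, a paternal inhibitor of a kinase of the stress response, ranged from 58.9 to 104 CPM at D0 and from 119 to 194 at D6, so that the days did not overlap. It was over 2-fold higher in Tet2-/-, by 1.01 (SE 0.18, adjusted p = 1.92e-04), and passed the adjusted p with 0.70 (Tet1-/-) to 0.95 (TKO) in the other 4 genotypes. The difference from WT in Tet2-/- was 0.25 (SE 0.22, adjusted p = 0.468), and the rise was under 2-fold there without the D0 or D6 library of Tet2_KO_3.10 (0.96 and 0.89). Nap1l5, a paternal gene inside Herc3, was called higher in WT, with 0 CPM in the 3 WT libraries of D0 and 0.202, 0 and 0.159 at D6. These levels are at most near that of 3 counts, so no fold is given. Of the uncalled genes, Zrsr1 ranged from 12.8 to 21.3 CPM at D0 and from 7.28 to 22.96 at D6, and Inpp5f from 27.5 to 41.0 and 36.1 to 59.8. Slc38a4, an amino acid transporter gene, ranged from 345 to 411 and 204 to 428 CPM, and Trappc9 from 15.4 to 35.0 and 15.8 to 24.9.

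Split by allele, genes of both classes rose and both held genes that were lower in Tet2-/-. Of 15 tested maternal genes 7 rose in WT and 3 in Tet2-/-, and of 20 paternal genes 10 and 7, beside 20.7% and 12.7% of all genes. In Tet2-/- at D6, 3 maternal genes (H19, Zim1 and Asb4) and 4 paternal genes (Igf2, Peg3, Usp29 and Peg10) were lower than in WT, as were 9.45% of all genes. Summed over the 16 maternal genes, D0 libraries held 749.8, 605 and 702 CPM in WT and 798 and 861 in Tet2-/-. The D6 libraries held 1765, 1104 and 1607 and, in Tet2-/-, 1167 and 1083. Summed over the 21 paternal genes, D0 libraries held 1073, 1189 and 989 CPM in WT and 1401 and 1449 in Tet2-/-, and those of D6 4519, 2519 and 5237 and, in Tet2-/-, 2128 and 1987. Both Tet2-/- sums were thus the highest of D0, and the paternal sum at D6 was lowest in TKO_8.4 (1821 CPM) and Tet2-/-. The sums lean on the few genes with high counts, such as Peg10 and Slc38a4 among paternal genes and Grb10 among maternal ones.

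**Figure D3:**
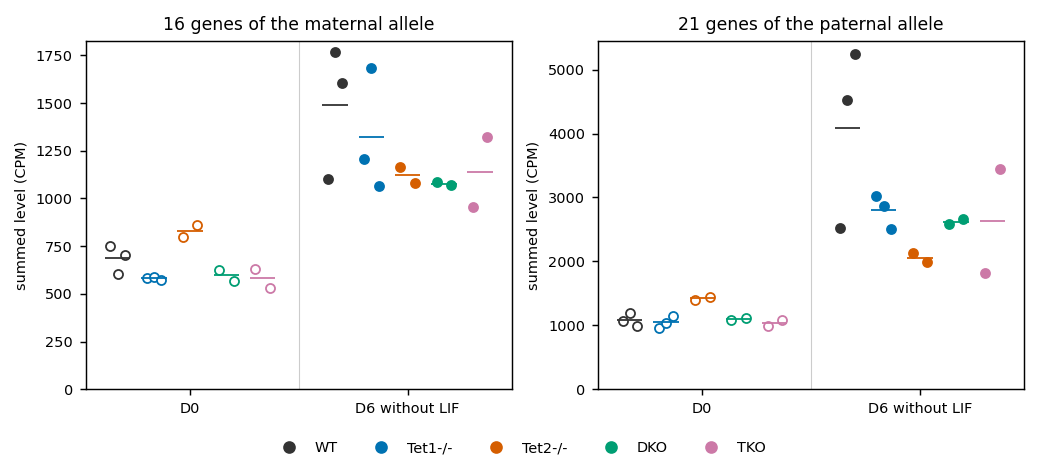
Summed level (CPM) of the 16 maternal and the 21 paternal genes in each library at D0 (open) and D6 without LIF (filled), coloured by genotype, with bars at group means. At D0 the Tet2-/- libraries are the highest in both panels, at 798 and 861 CPM for maternal genes and 1401 and 1449 for paternal genes, and at D6 the paternal sum spans 1821 to 5237 CPM.

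When all genotypes were compared at once, 14 of 36 tested genes differed at D0 (adjusted p under 0.05, no fold threshold; all genes 23.4%) and 9 of 37 at D6 (all genes 13.2%). At D0 these were H19, Peg3, Usp29, Peg10, Sgce, Asb4, Ppp1r9a, Snrpn, Ascl2, Grb10, Plagl1, Gnas, Inpp5f and Trappc9, and at D6 H19, Igf2, Peg3, Usp29, Zim1, Igf2r, Plagl1, Gnas and Inpp5f. The smallest adjusted p was 0.00610 at D0, for Peg10, and 0.0198 at D6, for Igf2. The D0 count was 5 without Tet2_KO_3.10, 4 without Tet2_KO_3.11 and 9 without either DKO clone. That of D6 was 0 without WT clone O4.13 or either Tet2-/- clone, 1 and 2 without DKO_5.12 and DKO_5.11, 2 without WT clone O4.1 and 4 without Tet1_KO_2.1.

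Imprinted genes also varied between clones of a genotype. The SD between clones within a genotype, on log2(CPM + 1), had a median over the 37 genes of 0.221 at D0 and 0.331 at D6, beside 0.157 and 0.187 over all genes. At D0 1 gene, Peg12, had an SD over 0.5 (0.558), and at D6 10 did, while 1.04% and 4.62% of all genes did. The highest SDs at D6 were those of Asb4 (1.30), Igf2 (0.820), H19 (0.677) and Phlda2 (0.647). With 10 added to the CPM in place of 1, the genes over 0.5 numbered 0 at D0 and 6 at D6 (0.166% and 0.998% of all genes). The level of a clone at D0 was then set against its level at D6 over the 11 clones present on both days. By a two-sided permutation test adjusted over all genes, 0 of 37 imprinted genes and 0 of 15639 genes (0%) had a called correlation. With 100000 permutations, 1 gene at the smallest possible p could not pass this adjustment alone. The lack of calls therefore does not decide whether clones keep their level. The highest r was that of Cdkn1c (r = 0.83, permutation p adjusted to 0.125, and rho = 0.72, adjusted to 0.321). It was 0.90 within genotypes and 0.60 without the 2 clones farthest from the median. The lowest r was that of Peg10 (r = -0.74, permutation p adjusted to 0.184, and rho = -0.79, adjusted to 0.257).

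Within domains, 7 of 16 relations between neighbouring genes over the libraries of a day were called. These were 8 pairs on 2 days, on log2(CPM + 1) over 12 libraries, with two-sided permutation tests adjusted over the 16. Meg3 and Rian had r = 0.85 (permutation p = 2.40e-04, adjusted 0.00192) and rho = 0.79 (permutation p = 0.00334, adjusted 0.0267) at D6, and r = 0.89 (permutation p = 1.90e-04, adjusted 0.00192) and rho = 0.68 (permutation p = 0.0181, adjusted 0.0725) at D0. Among 15638 genes ranked by r with Meg3, Rian was number 1 at D0 and number 5 at D6. The neighbour ranked lower in the other called pairs. Phlda2 was number 160 for Cdkn1c, Igf2 number 494 for H19 and Usp29 number 1014 for Peg3 at D6, and Sgce number 303 at D0 and 713 at D6 for Peg10. Within genotypes, that is after centring on the genotype mean, the r of Meg3 and Rian was 0.80 at D0 and 0.76 at D6. Without the 2 libraries farthest from the median of Meg3 it was 0.75 at D6 (permutation p = 0.0119) and 0.58 at D0 (permutation p = 0.0819), and the D0 call did not hold over these 10 libraries.

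At D6 H19 and Igf2, which are read from opposite alleles, varied in the same direction over the libraries, with r = 0.78 (permutation p = 0.00278, adjusted 0.0111) and rho = 0.81 (permutation p = 0.00214, adjusted 0.0267). Within genotypes r was 0.50, and without the 2 libraries farthest from the median of H19 it was 0.65 (permutation p = 0.0434). Peg3 and Usp29 at D6 had r = 0.83 (permutation p = 9.00e-04, adjusted 0.00480) and rho = 0.74 (permutation p = 0.00770, adjusted 0.0411). Their r was 0.87 within genotypes and 0.63 without 2 libraries (permutation p = 0.0505), which missed 0.05 over 10 libraries. At D0 their r was -0.10 (permutation p = 0.755), and Tet2-/- was high in Peg3 and low in Usp29.

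Peg10 and Sgce, paternal genes that start beside each other on opposite strands, had r = 0.75 (permutation p = 0.00396, adjusted 0.0127) and rho = 0.55 (permutation p = 0.0717, adjusted 0.164) at D6, and r = 0.73 (permutation p = 0.00649, adjusted 0.0173) and rho = 0.50 (permutation p = 0.0967, adjusted 0.172) at D0. Within genotypes r was 0.72 and 0.47. Without 2 libraries it was 0.54 and 0.47 (permutation p = 0.104 and 0.176), and neither call held over these 10 libraries. The same was so for Cdkn1c and Phlda2 at D6, with r = 0.71 (permutation p = 0.00986, adjusted 0.0225) and rho = 0.60 (permutation p = 0.0425, adjusted 0.135), 0.53 within genotypes and r = 0.37 without 2 libraries (permutation p = 0.285). Meg3 with Dlk1, Snrpn with Ndn and Cdkn1c with Kcnq1ot1 were not called on either day, nor were Cdkn1c with Phlda2 and H19 with Igf2 at D0.

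**Figure D4:**
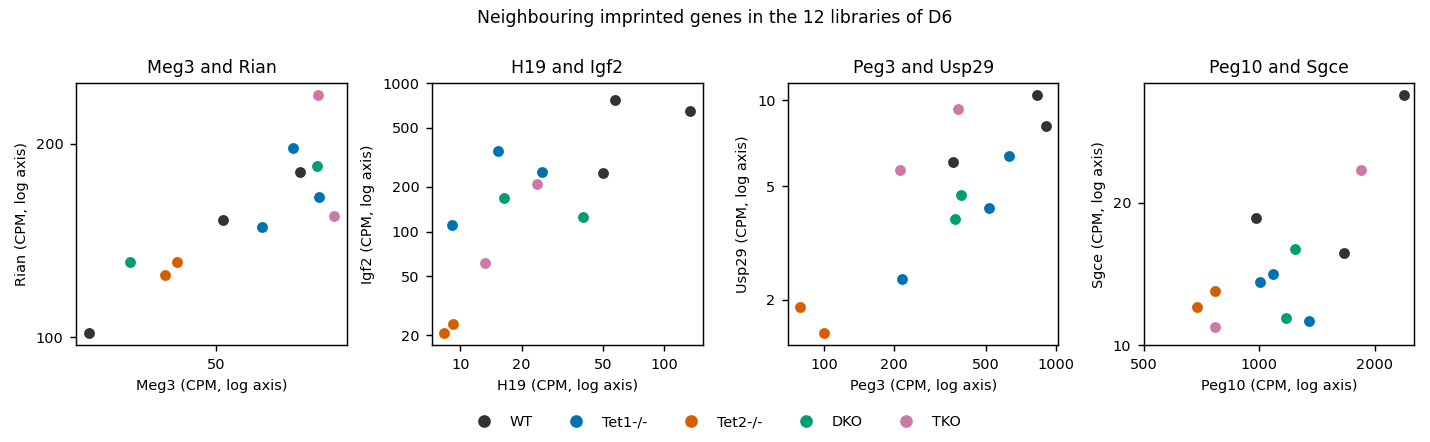
Levels (CPM, log axes) of 4 pairs of neighbouring imprinted genes in the 12 libraries of D6, coloured by genotype. Both Tet2-/- libraries lie at the lower left for H19 and Igf2 and for Peg3 and Usp29, and r on log2(CPM + 1) was 0.85 for Meg3 and Rian and 0.83 for Peg3 and Usp29.

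Zfp57, a zinc finger protein that keeps imprints in ESCs, is known to bind the letters TGCCGC when they are methylated. Promoter windows were the 250 bases before a gene's start (RefSeq, GRCm38.p6, a later build than the mm9 of the counts). Of 32851 windows of all genes 8.68% hold these letters on either strand, as do 6 of 49 windows of the 32 imprinted genes that could be matched (12.2%). They belong to Mest (2 overlapping windows), Nap1l5, Zim1, Plagl1 and Meg3. The windows of the 4 that rose in WT by a measurable fold are shown, so that the place of the letters can be compared. They run 5′ to 3′ on the gene's strand, with the letters in capitals (GCGGCA is the same site on the other strand). Mest lies at chr6:30737800-30738049 on the plus strand, Plagl1 at chr10:13090582-13090831 on the plus strand, Zim1 at chr7:6696433-6696682 on the minus strand and Meg3 at chr12:109540746-109540995 on the plus strand. Mest holds 2 matches and each of the others 1. A match is a description of the letters and not a bound site.
Mest: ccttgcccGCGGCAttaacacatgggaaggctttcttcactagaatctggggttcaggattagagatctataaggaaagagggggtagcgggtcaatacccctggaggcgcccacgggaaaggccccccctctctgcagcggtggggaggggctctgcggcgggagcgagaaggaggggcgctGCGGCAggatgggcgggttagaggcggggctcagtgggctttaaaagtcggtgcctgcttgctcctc
Plagl1: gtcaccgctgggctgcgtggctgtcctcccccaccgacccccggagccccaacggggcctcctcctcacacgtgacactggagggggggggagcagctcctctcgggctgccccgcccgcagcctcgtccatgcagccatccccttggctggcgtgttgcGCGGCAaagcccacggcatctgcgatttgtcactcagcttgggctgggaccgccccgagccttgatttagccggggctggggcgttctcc
Zim1: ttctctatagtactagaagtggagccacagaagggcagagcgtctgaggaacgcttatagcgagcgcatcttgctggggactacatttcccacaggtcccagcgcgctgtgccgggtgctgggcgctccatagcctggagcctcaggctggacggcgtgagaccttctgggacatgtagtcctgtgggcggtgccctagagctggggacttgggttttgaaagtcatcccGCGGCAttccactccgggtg
Meg3: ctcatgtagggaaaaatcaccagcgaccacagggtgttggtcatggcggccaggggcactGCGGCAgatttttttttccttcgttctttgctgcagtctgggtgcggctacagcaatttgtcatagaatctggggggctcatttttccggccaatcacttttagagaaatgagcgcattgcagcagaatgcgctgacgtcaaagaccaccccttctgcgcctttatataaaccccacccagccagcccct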

How the data were processed

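Polyadenylated RNA of 24 mouse ESC libraries, 12 at D0 and 12 at D6, was analysed from 1 table of counts per day, with 31928 rows for 22926 gene symbols. The authors deposited these as unnormalised read counts per transcript, made from paired-end reads mapped with STAR 2.5.1 to mm9; the submitters' processing notes also name DESeq2. The counting program is named as HTSeq in a supplementary note and as featureCounts in the names of the deposited tables, and its strand setting is not given in the sources used here. Genes that overlap another are therefore uncertain: Igf2, Mest, Zrsr1, Nnat, Nap1l5, Igf2r, Airn, Kcnq1, Kcnq1ot1, Tssc4, Gnas, Rtl1, Meg3 and Trappc9.

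Of the symbols, 4911 had several rows, 17 listed genes among them, and the first row was used. No row named a spike-in RNA, so scaling by spike-ins was not repeated. Groups and clones were taken from the labels, reading a D6 label of DKO that lacks its point as DKO_5.12. Replicates are clones (Tet1_KO_2.3 at D0 only, Tet1_KO_2.2 at D6 only), so p-values measure the spread between clones of 1 line. R 4.3.3 with edgeR 4.0.16 was used (filterByExpr with a minimum count of 10, TMM, quasi-likelihood tests), with a 24-library fit for changes with day and a fit per day for knockouts. Genes were called at an adjusted p under 0.05 and over 2-fold. Correlations, with Python 3.11.15 and scipy 1.17.1, used log2(CPM + 1) and 100000 permutations. With 200 genes changed by 2 on the log2 scale in simulated data, the Tet2-/- comparison at D6 recovered 81.5% of them over 15435 genes, with 5 false calls.

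Clones were paired between D0 and D6 by label. Deviations of the same clone from its group means had r of 0.103 to 0.193 over the 11 clones, each highest with its own partner. Each knockout genotype shares just 2 clones between days, so their deviations mirror each other and both give the same r. There, a best match with the own partner only restates a positive r, and the 11 values are not independent checks. Values with the clone as a block stand beside a result where they change its call. Alternatives were DESeq2 1.42.0, its size factors, library totals, no filter, summed rows, replicate or clone blocks, each library left out and pseudocounts of 0.1 and 10. Named genes were those called, by size of change, partners of fixed pairs, the Tet genes and the 3 called genes of largest change on each further list. The members and lists were chosen with earlier results of these data known. Gene positions are those of the GENCODE annotation of mm9.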

Additional observations from a re-analysis of the deposited data

Results flagged for a closer look

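In 6 imprinted genes the change from D0 to D6 differed between Tet2-/- and WT by edgeR's test of the difference itself, each with a smaller change in Tet2-/- (all genes 5.13%). The log2 difference (Tet2-/- minus WT) was -4.26 (SE 0.78, adjusted p = 0.00408) for Igf2, -3.87 (SE 1.05, adjusted p = 0.0207) for Zim1, -3.54 (SE 0.60, adjusted p = 0.00273) for Peg3, -2.29 (SE 0.46, adjusted p = 0.00611) for Peg10, -2.24 (SE 0.69, adjusted p = 0.0355) for H19 and -1.16 (SE 0.25, adjusted p = 0.00808) for Gnas. The log2 change was positive in both genotypes, and in Tet2-/- those of Zim1 and Peg10 were not called. The difference of H19 was lost on leaving out any of 7 single libraries (adjusted p up to 0.150) and that of Zim1 any of 3 (up to 0.107). H19 and Zim1 are maternal genes, Igf2, Peg3 and Peg10 paternal ones, and Zim1 at D0 was near the level of 3 counts. In TKO the change of Gnas differed from that in WT by -1.26 (SE 0.25, adjusted p = 0.0104), where 1.74% of all genes were called lower. The sums of mesoderm markers in the same D6 libraries were 66.9 to 101 CPM beside 274 to 900.3 in WT. Their part in these differences was not tested.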

How the results depend on the processing

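Of 99 calls between days, between a knockout and WT or of a differing change with day, 73 held in every alternative run. With all libraries kept, no called direction reversed and counts stayed within 1.5 times their value, with these exceptions. DESeq2 called 1 gene lower in Tet1-/- and 1 in DKO at D0, and at D6 1 lower in Tet1-/-, 1 higher in Tet2-/-, 1 lower in DKO, and 1 higher and 5 lower in TKO, where edgeR called 0. It gave 17 genes in place of 9 for any genotype difference at D6. Without the count filter 1 gene was lower in DKO at D0. With the clone as a block 1 gene was lower at D6 than at D0 in Tet1-/-, and the change with day differed from WT in 4 genes in place of 1 in TKO. The report gives each call that the clone block added, and it changed no other. Clones of a day with the same title number had a median r of 0.134 at D0 (11 of 21 over 0.1, highest 0.312). At D6 the median was -0.045 (7 of 21 over 0.1). Whether the title numbers pair the clones of a day was not tested further. With that number as a replicate block, 2 genes differed between genotypes at D6 in place of 9, and the lower calls of Ascl2 (D0) and Peg10 (D6) in Tet2-/- were lost. The median SD between clones at D0 was 0.0953 with a pseudocount of 10, beside 0.0860 over all genes. With that pseudocount 0 of 37 genes at D0 and 6 at D6 had an SD over 0.5, beside 0.166% and 0.998% of all genes. With one of 0.1, 3 of 37 genes at D0 had an SD over 0.5, beside 10.53% of all genes. The cause of these changes was not tested.

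Leaving out 1 library at a time, genes rising with day numbered 17 to 20 in WT, 17 to 19 in Tet1-/-, 7 to 12 in Tet2-/-, 15 to 18 in DKO and 15 to 19 in TKO. Those falling numbered 0 to 1 in each of Tet1-/-, Tet2-/- and TKO. At D0, 0 to 1 genes were lower in Tet1-/-, 0 to 2 higher and 0 to 3 lower in Tet2-/-, 0 to 2 lower in DKO, and 0 to 1 higher and 2 to 4 lower in TKO. At D6, 0 to 1 were higher and 0 to 11 lower in Tet2-/-, and 0 to 1 higher and 0 to 5 lower in TKO. The change with day differed in 4 to 7 genes in Tet2-/- and 1 to 5 in TKO. Any genotype difference was called in 4 to 21 genes at D0 and 0 to 13 at D6, and 5 to 8 relations within domains were called. The r of Peg3 and Usp29 at D0, -0.10, ranged from -0.229 to 0.0789 and turned positive without either Tet2-/- library (0.0789 and 0.0616). That of Cdkn1c and Kcnq1ot1 at D6, 0.03, ranged from -0.189 to 0.277 and turned negative without WT clone O4.1 (-0.168), Tet1_KO_2.4 (-0.0272) or DKO_5.12 (-0.189). The uncalled change of Mest with day in TKO ranged from -0.762 (without the D6 library of TKO_8.12) to 0.706, and was -0.121 without the D0 library of TKO_8.4 and -0.00296 with the clone as a block. At D0 Meg3 with Dlk1 was called without TKO_8.12 (r = -0.756), H19 with Igf2 without Tet1_KO_2.3 (0.671) and Snrpn with Ndn without TKO_8.4 (-0.873). Depth limits genes close to the level of 3 counts, such as Nap1l5 and, at D0, Zim1. The pairs Meg3 with Mirg and Igf2r with Airn were not run.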

Other observations

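Of 45 further genes listed as imprinted, 36 were tested between days, and the imprinting of each was not checked here. WT had 10 that rose and 6 that fell (all genes 20.7% and 13.3%), Tet2-/- 7 and 3 (12.7% and 6.44%), and the remaining genotypes 8 to 9 and 2 to 4 (16.8% to 19.9% and 8.63% to 11.2%). At D6, 3 of 37 were higher in Tet2-/- than in WT and 5 lower, beside 4.81% and 9.45% of all genes. Calcr, the gene of the calcitonin receptor, was among the 3 that were higher. At D6 it was 8.32, 9.0 and 4.96 CPM for WT, 8.15, 7.46 and 23.4 for Tet1-/-, 40.7 and 33.02 for Tet2-/-, 15.2 and 18.6 for DKO and 11.1 and 4.84 for TKO, so that both Tet2-/- libraries were the highest, followed by Tet1_KO_2.4. Its log2 fold change from WT was 2.29 (SE 0.49, adjusted p = 0.00987), and its rise with day, 2.85 in WT and 5.88 in Tet2-/-, differed by 3.03 (SE 0.72, adjusted p = 0.0113). Dcn, a proteoglycan gene, and Slc22a3, an organic cation transporter gene, were at 0 in all D0 libraries and ranged from 0.191 to 0.723 CPM and from 0.101 to 0.798 CPM at D6. Both were called higher in all 5 genotypes, and no fold is given against a level of 0.

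Of 20 genes of proteins that keep or remove imprints, all tested, 7 fell and 1 rose in WT, where 13.3% and 20.7% of all genes did. In Tet2-/- 3 fell and 2 rose (6.44% and 12.7%), and the remaining genotypes had 4 to 6 that fell (8.63% to 11.2%) and 1 to 3 that rose (16.8% to 19.9%). Zfp57 was 185, 202 and 200 CPM for WT, 214, 266 and 254 for Tet1-/-, 168 and 189 for Tet2-/-, 236 and 242 for DKO and 159.8 and 237 for TKO at D0. By D6 it was 25.5, 34.9 and 26.7 CPM for WT, 33.3, 29.2 and 33.8 for Tet1-/-, 45.1 and 46.1 for Tet2-/-, 36.7 and 34.8 for DKO and 44.5 and 51.0 for TKO. The days did not overlap, and it fell in all 5 genotypes, with log2 changes from -2.93 in Tet1-/- to -1.97 in Tet2-/-. Zfp42, a zinc finger gene of ESCs, fell by 3.49 on the log2 scale in WT and by 1.43 in Tet2-/-, a difference of 2.06 (SE 0.54, adjusted p = 0.0182). At D0 it was 804, 883 and 955 CPM in WT and 493 and 468 in Tet2-/-, and at D6 44.5, 122 and 67.9 and 178 and 178. Dppa3, whose protein shields methylation in the early embryo, was 0.857, 2.94 and 5.16 CPM for WT, 5.31, 3.07 and 2.05 for Tet1-/-, 0.374 and 0.488 for Tet2-/-, 4.01 and 6.87 for DKO and 12.98 and 66.1 for TKO at D6. TKO was the highest and Tet2-/- the lowest. The log2 fold change of Tet2-/- from WT was -2.83 (SE 0.91, adjusted p = 0.0404), and Dppa3 rose with day in Tet1-/- by 2.08 and in TKO by 2.99.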
